A study of Homo sapiens with 6 samples.

Results

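The genes of the TP53BP1 axis were TP53BP1, RIF1, SHLD1, SHLD2, SHLD3, MAD2L2, PAXIP1, RNF8, RNF168 and MDC1, which were chosen by name. All 10 were found by their GENCODE symbols among the 21447 genes of the deposited tables, and all 10 were among the 14323 genes that passed the filter on low counts. For TP53BP1, the 17 annotated transcripts present in the tables were also taken. RNA was sequenced in bulk from U-2 OS cells, a human osteosarcoma line, in 3 untreated libraries and in 3 libraries of cells that had received 4 Gy of ionizing radiation (IR) 24 h before. The labels give no genetic change and no agent other than IR in either group. The methods describe the 3 libraries of a group as distinct samples but do not say whether these were cultured and irradiated separately, so the p-values below measure only the spread between these samples, which may be technical in part.

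At a DNA double-strand break, the kinase ATM phosphorylates the histone H2AX, the adaptor MDC1 binds the phosphorylated histone, and the ubiquitin ligases RNF8 and then RNF168 modify the surrounding chromatin. 53BP1, the product of TP53BP1, reads the ubiquitin mark of RNF168 together with a methyl mark on histone H4. Phosphorylated 53BP1 then binds PTIP, encoded by PAXIP1, and RIF1, and RIF1 brings in shieldin, a complex of SHLD1, SHLD2, SHLD3 and REV7, the last encoded by MAD2L2. Shieldin restrains the resection of DNA ends and favours their joining, in opposition to BRCA1. These proteins are known for assembling at breaks in foci, and the values here are levels of their RNA.

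The libraries held between 18573309 and 22953834 estimated counts, apart from IR replicate 3 with 45308792. IR replicate 3 also stood apart from the other libraries of its group, with a chi-square per gene of 28.0 and 31.1 against them, where the other 4 pairs of replicates had between 3.47 and 9.20. Computed on unscaled counts, this measure grows with depth, and how far the depth of IR replicate 3 accounts for the gap was not tested. In the irradiated libraries, the p53 target genes CDKN1A, FAS, GADD45A and MDM2 were higher in 4 of 4 cases by edgeR's quasi-likelihood test with Benjamini-Hochberg adjustment, with log2 fold changes between 0.60 and 1.53. Of the markers of the cell type, VIM, COL1A1, SPARC and CDH2 had between 221 and 3509 CPM (counts scaled to library size) in every library, COL1A2 had at most 2.14 CPM, and the T cell marker CD3E was at 0 in all 6 libraries.

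In untreated cells the levels of the 10 genes spanned a wide range when compared per length, in TPM, the transcript abundance scaled for length and library total. TP53BP1 was the highest with 43.7 ± 3.85 TPM (SD, n = 3), followed by RIF1 with 36.1 ± 1.14 TPM and MAD2L2 with 33.1 ± 1.27 TPM. SHLD2 with 27.9 ± 0.619 TPM and MDC1 with 27.3 ± 2.99 TPM came next, and the libraries of these neighbours overlapped. The ligases RNF8 and RNF168 had 22.5 ± 1.43 TPM and 15.3 ± 0.510 TPM. The lowest were SHLD3 with 10.9 ± 3.18 TPM, SHLD1 with 5.12 ± 1.31 TPM and PAXIP1 with 1.87 ± 0.595 TPM. No other neighbours in this order overlapped between libraries.

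After IR, RIF1 moved from rank 2 to rank 5 of the 10 genes, with 21.8 ± 1.75 TPM, while TP53BP1 kept the first rank by group mean with 41.5 ± 3.03 TPM. In IR replicate 3 MAD2L2 was ahead of it, with 47.9 against 38.4 TPM. The irradiated libraries of RIF1 ranged from 20.5 to 23.8 TPM and overlapped those of RNF8, MDC1 and SHLD2, so that the order from rank 3 to rank 6 was not resolved beyond the spread. Among the subunits of shieldin, the RNA of SHLD1 was the scarcest in every library. The TPM of SHLD2 was between 4.48 and 7.27 times that of SHLD1 in the untreated libraries and between 3.67 and 4.37 times in the irradiated ones. SHLD3 had between 1.72 and 2.52 times the TPM of SHLD1 over all 6 libraries, with no separation of the groups.

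The comparison of irradiated with untreated libraries asked whether RNA of the pathway differed 24 h after IR. At an adjusted p under 0.05, RIF1, SHLD2 and MDC1 were lower and none of the 10 genes was higher, while TP53BP1 and 6 others did not pass the test. RIF1 fell by 39.8%, MDC1 by 22.4% and SHLD2 by 20.5%. Of all genes tested, 14.5% were called lower, 15.5% higher and 30.1% in either direction, so that the share of called members, 3 of 10, was near that of all genes. The median log2 fold change of the 10 genes was -0.15, against 0.01 for all genes tested. Without IR replicate 3, the library that stood apart, RIF1 (-0.66, adjusted p = 0.000312), SHLD2 (-0.36, adjusted p = 0.00299) and MDC1 (-0.27, adjusted p = 0.0103) were still lower on the log2 scale. Under 17 alternative fits, RIF1 was called in 17, SHLD2 in 13 and MDC1 in 12, so the calls of SHLD2 and MDC1 depended on the processing. In bulk RNA, fewer cells that express a gene and less RNA per cell cannot be told apart, and this holds for each of these values.

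The groups did not overlap for 4 of the 10 genes, RIF1, SHLD2, MDC1 and RNF168, each time with the irradiated libraries lower. Over all genes tested, 23.3% were lower without overlap and 47.1% did not overlap in either direction. With 3 libraries against 3, the smallest two-sided p of the exact permutation test is 0.1, and these 4 genes reached it.

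**Figure D1:**
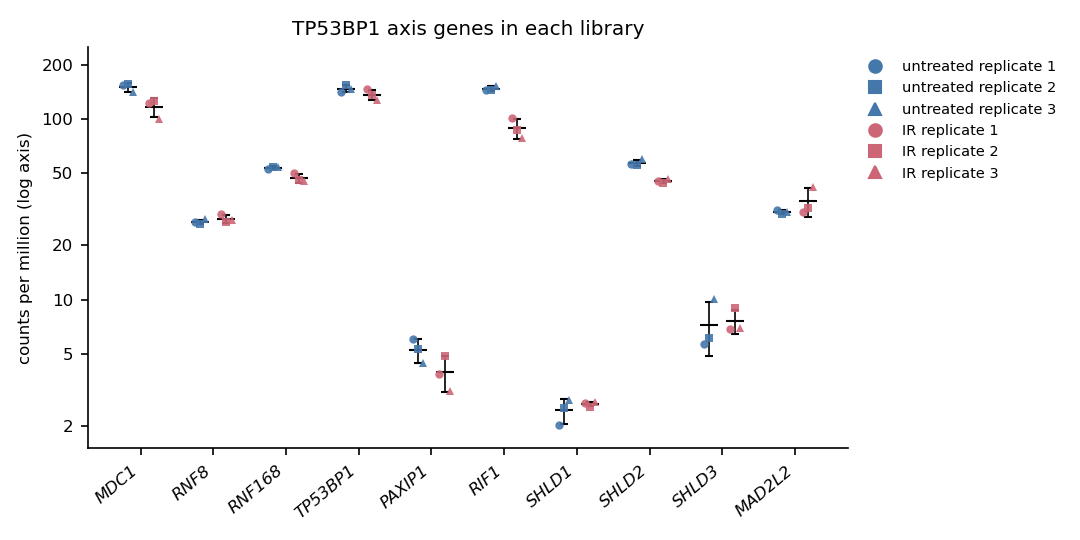
CPM on a log axis for the 10 genes in the 3 untreated (blue) and 3 irradiated (red) libraries, with the mean and SD of each group in black. RIF1 lay between 144 and 153 CPM in untreated and between 78.6 and 101 CPM in irradiated libraries, whereas the groups of TP53BP1 overlapped.

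MDC1, the adaptor that binds phosphorylated H2AX (ENSG00000137337, chromosome 6 from 30699807 to 30717447 of GRCh38, reverse strand), had 153, 156 and 141 CPM in the untreated and 123, 126 and 99.9 CPM in the irradiated libraries. Every irradiated library was below every untreated one, and IR replicate 3 was the lowest. Its log2 fold change was -0.37 with a standard error (SE) of 0.09 and an adjusted p of 0.0149. The call was lost when untreated replicate 1 (adjusted p = 0.0569) or untreated replicate 2 (adjusted p = 0.0593) was left out. It was also lost with an offset for the effective length of the gene in each library, with a log2 fold change of -0.26 and an adjusted p of 0.130. MDC1-201, the transcript of the 2089-residue protein, held between 92.4% and 97.3% of the counts of the gene. MDC1-206, a form with a retained intron, came next over all libraries, with means of 0.861% in untreated and 2.91% in irradiated libraries. In the untreated libraries MDC1-203 was ahead of it, with a mean of 1.25%. The shares of MDC1-206 in IR replicates 1, 2 and 3 were 1.23%, 2.24% and 5.26%.

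RNF8, the first ubiquitin ligase of the cascade (ENSG00000112130, chromosome 6 from 37353979 to 37394734, forward strand), had 26.8, 26.3 and 27.8 CPM in untreated and 29.7, 27.0 and 27.5 CPM in irradiated libraries. The groups overlapped, and the 95% confidence interval of the log2 fold change ran from -0.11 to 0.23 with an adjusted p of 0.580. Its most abundant annotated transcript was RNF8-201, a form classed for nonsense-mediated decay, with 53.6% of the counts in untreated and 56.8% in irradiated libraries on average. RNF8-204, which encodes 448 residues, followed with 26.8% and 25.5%, and RNF8-202, which encodes the canonical protein of 485 residues, held 8.99% and 9.69%.

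RNF168, the ligase whose mark 53BP1 reads (ENSG00000163961, chromosome 3 from 196468783 to 196503768, reverse strand), had 52.7, 54.1 and 54.5 CPM in the untreated and 49.9, 46.0 and 45.1 CPM in the irradiated libraries. All 3 irradiated libraries were lower, by a margin close to the spread within the irradiated group. The log2 fold change was -0.20 with an SE of 0.07, and the adjusted p of 0.0532 did not pass the threshold. It passed in 2 of 17 alternatives, and in neither case did the direction differ. These were the size factors of DESeq2 in place of TMM (adjusted p = 0.0493) and the fit without IR replicate 1 (adjusted p = 0.0252). With each library's trend with GC content removed, the log2 fold change of RNF168 was -0.12 (adjusted p = 0.149).

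Only 2 transcripts of RNF168 are annotated, and the difference between the groups lay in the minor one. RNF168-201, which encodes the full protein of 571 residues, had 45.6, 46.2 and 49.8 CPM in untreated and 48.4, 45.7 and 46.2 CPM in irradiated libraries, a log2 fold change of -0.01. RNF168-202 had 7.52, 7.95 and 4.54 CPM in untreated and 2.01, 0.770 and 1.16 CPM in irradiated libraries. Each irradiated library was below each untreated one for RNF168-202, and the groups overlapped for RNF168-201. The log2 fold change of RNF168-202 was -2.34 with an SE of 0.47 and an unadjusted p of 0.00297, which did not pass adjustment over all transcripts (adjusted p = 0.192). By the edgeR likelihood ratio test, added after these results were seen, the adjusted p was 0.0203, and by the DESeq2 Wald test it was 0.000225. The share of RNF168-202 was 12.4% of the counts of the gene in untreated and 2.68% in irradiated libraries on average, and the test of transcript usage gave an adjusted p of 0.974. RNF168-201 has 2977 bases in its last exon and 91 in its first that RNF168-202 lacks. RNF168-202 also lacks the exon shown here, whose 77 bases are no whole number of codons. It is classed for nonsense-mediated decay with an open frame of 116 codons. A change in the use of this exon cannot be told apart from one in the use of the transcript ends. The sequence is that of chr3:196488607-196488683 of GRCh38, read on the reverse strand, all of it coding in RNF168-201.
RNF168 exon 2: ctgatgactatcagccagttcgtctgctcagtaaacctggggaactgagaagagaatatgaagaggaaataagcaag

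TP53BP1 (ENSG00000067369, chromosome 15 from 43403061 to 43510728, reverse strand) had 140, 153 and 147 CPM in the untreated and 146, 135 and 128 CPM in the irradiated libraries. The groups overlapped, and IR replicate 1 lay within the range of the untreated libraries. The 95% confidence interval of the log2 fold change ran from -0.27 to 0.05 around -0.11, with an adjusted p of 0.262 and an exact two-sided permutation p of 0.2.

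The genes most like TP53BP1 over the 6 libraries were sought among 1429 genes whose mean level was within 0.5 of it on the log2 CPM scale. The closest by root mean square difference of centred log2 CPM were PDXDC1 (0.0274), AKAP12 (0.0278), YAP1 (0.0317), ACACA (0.0319) and AIDA (0.0323), where the median gene of that range had 0.134. Their log2 fold changes lay between -0.14 and -0.07 and none passed the test. The measure describes 6 libraries that share depth and handling, and it carries no test.

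Of the 17 transcripts of TP53BP1 in the tables, 10 had a mean of at least 1 CPM, and the same number were tested. TP53BP1-202, which encodes 1927 residues, was the most abundant in 5 of the 6 libraries, with shares of 38.9%, 37.0% and 40.1% of the counts of the gene in untreated and 35.5%, 37.9% and 22.1% in irradiated libraries. In IR replicate 3 TP53BP1-210, with 1975 residues, was ahead of it at 28.4%. The canonical TP53BP1-203, with 1977 residues, held 12.99%, 12.2% and 15.5% in untreated and 16.4%, 16.5% and 17.1% in irradiated libraries. The shares of TP53BP1-203 did not overlap between the groups, although the gap was smaller than the spread within the untreated group.

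Of these forms, TP53BP1-202 lacks a coding exon of 150 bases that TP53BP1-210 and TP53BP1-203 hold. The exon is shown because it is a coding difference between TP53BP1-202 and these forms, which also differ in non-coding bases at their ends. It is exon 20 at chr15:43421025-43421174 of GRCh38, read on the reverse strand.
TP53BP1 exon 20: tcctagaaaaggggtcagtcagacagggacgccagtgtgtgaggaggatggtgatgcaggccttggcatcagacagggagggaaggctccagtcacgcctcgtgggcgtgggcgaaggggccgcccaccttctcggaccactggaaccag

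None of the 10 transcripts of TP53BP1 that were tested passed the threshold. None of the 56752 transcripts tested over all genes passed it either (0%), while 6090 had an unadjusted p under 0.05, 3002 passed by the DESeq2 Wald test and 714 by the edgeR likelihood ratio test. For TP53BP1, 1 transcript had an unadjusted p under 0.05, TP53BP1-210 with a log2 fold change of -0.29 and an adjusted p of 0.461. TP53BP1-204, a form classed for nonsense-mediated decay, had 2.93, 5.45 and 0 CPM in untreated and 10.9, 11.6 and 20.8 CPM in irradiated libraries. These groups did not overlap, yet the SE of its log2 fold change of 2.36 was 1.44, with an adjusted p of 0.648. In the test of transcript usage, which passed 2.67% of 10666 genes, TP53BP1 had an adjusted p of 1.00, and none of the 9 members with at least 2 tested transcripts passed.

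**Figure D2:**
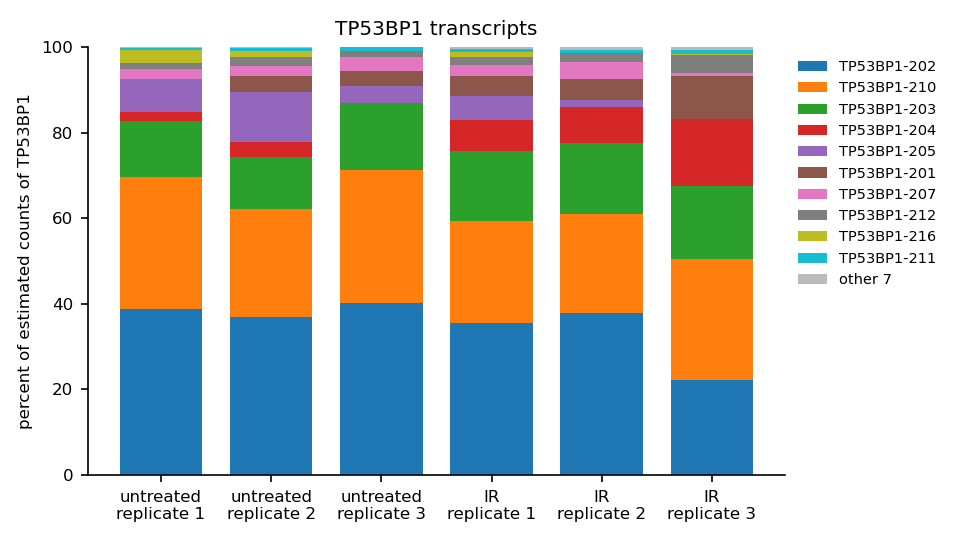
Share of the estimated counts of TP53BP1 assigned to each transcript, in percent, for each of the 6 libraries, with the 7 transcripts under 1 CPM pooled in grey. TP53BP1-202, TP53BP1-210 and TP53BP1-203 led in every library, and the share of TP53BP1-202 was lowest in IR replicate 3 at 22.1%.

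PAXIP1, which encodes the 53BP1 partner PTIP (ENSG00000157212, chromosome 7 from 154943687 to 155003124, reverse strand), had 6.04, 5.31 and 4.45 CPM in untreated and 3.87, 4.90 and 3.12 CPM in irradiated libraries. The groups overlapped, and the gene rested on only 80 to 141 counts per library. The 95% confidence interval of its log2 fold change of -0.43 ran from -0.88 to 0.02, with an adjusted p of 0.138. The canonical transcript PAXIP1-201 of 1069 residues was listed at 0 in all 6 libraries. The most abundant was PAXIP1-205, which has no annotated coding sequence and held 50.03% and 62.0% of the counts in untreated and irradiated libraries on average, followed by PAXIP1-203, a form classed for nonsense-mediated decay, with 25.5% and 17.9%, so that no level of PTIP-coding RNA can be read from these values.

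RIF1, which binds phosphorylated 53BP1 and recruits shieldin (ENSG00000080345, chromosome 2 from 151409883 to 151508013, forward strand), had 144, 145 and 153 CPM in the untreated and 101, 86.4 and 78.6 CPM in the irradiated libraries. The highest irradiated library was well below the lowest untreated one. The log2 fold change was -0.73 with an SE of 0.09 and an adjusted p of 0.000706, the largest change among the 10 genes. Of all genes tested, 2.02% had a lower log2 fold change. The call held in 17 of 17 alternatives, with log2 fold changes between -0.85 and -0.53, and the smallest change was that after each library's trend with GC content was removed. RIF1 has a GC content of 37.8%.

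In the estimates, the difference in RIF1 was not spread evenly over its transcripts. The test of transcript usage did not pass for RIF1 (unadjusted p = 0.536), so the split below is a description. RIF1-203, the most abundant in untreated cells, had 80.2, 96.8 and 85.6 CPM in untreated and 51.5, 38.4 and 11.3 CPM in irradiated libraries. The canonical RIF1-205 had 24.0, 21.8 and 31.1 CPM in untreated and 24.0, 28.5 and 22.5 CPM in irradiated libraries. The groups of RIF1-203 were apart and those of RIF1-205 overlapped. The log2 fold changes were -1.38 with an adjusted p of 0.451 for RIF1-203 and -0.04 with an adjusted p of 0.969 for RIF1-205. In IR replicate 3 the counts were split differently from the other irradiated libraries, with 26.7 CPM for RIF1-206, against 9.83 and 8.47 CPM in IR replicates 1 and 2.

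These splits were steadier when transcripts of the same coding sequence were added, a grouping chosen after the values were seen and given without a test. RIF1-203, RIF1-206 and RIF1-204, which encode 2446 residues, summed to 99.8, 102 and 106 CPM in untreated and 61.3, 49.7 and 38.0 CPM in irradiated libraries, a change of -51.5% in the mean. RIF1-205 and RIF1-201, which encode 2472 residues, summed to 35.8, 36.1 and 38.1 CPM in untreated and 31.8, 28.5 and 33.1 CPM in irradiated libraries, a change of -15.1%. The longer form made up 26.2% to 26.4% of both in the untreated libraries and 34.2%, 36.4% and 46.6% in IR replicates 1, 2 and 3. Every irradiated library had a higher share of the longer form than every untreated one. The annotation gives these forms different ends as well, with 7104 bases after the coding sequence in the longer form and 320 to 554 in the shorter ones, stop codon included. The tables therefore cannot tell a change in the use of the exon from one in the use of the transcript end. The exon of 78 bases, 26 codons, that separates the forms is exon 32 at chr2:151468474-151468551 of GRCh38, forward strand.
RIF1 exon 32: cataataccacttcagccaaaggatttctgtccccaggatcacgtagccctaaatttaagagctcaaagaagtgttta

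The same comparison of ends was made for TP53BP1, again after the values were seen and without a test. TP53BP1-203, with 4325 bases after the coding sequence, made up 15.6% to 17.1% of the full-length forms in untreated and 20.1% to 21.98% in irradiated libraries. The other full-length forms, TP53BP1-202, TP53BP1-210 and TP53BP1-201, with 170 to 177 bases there, summed to 98.5, 101 and 110 CPM in untreated and 94.0, 89.7 and 81.2 CPM in irradiated libraries. Their groups did not overlap, while TP53BP1-203 had 18.4, 18.7 and 22.7 CPM against 24.1, 22.5 and 22.9 CPM, with overlap.

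**Figure D3:**
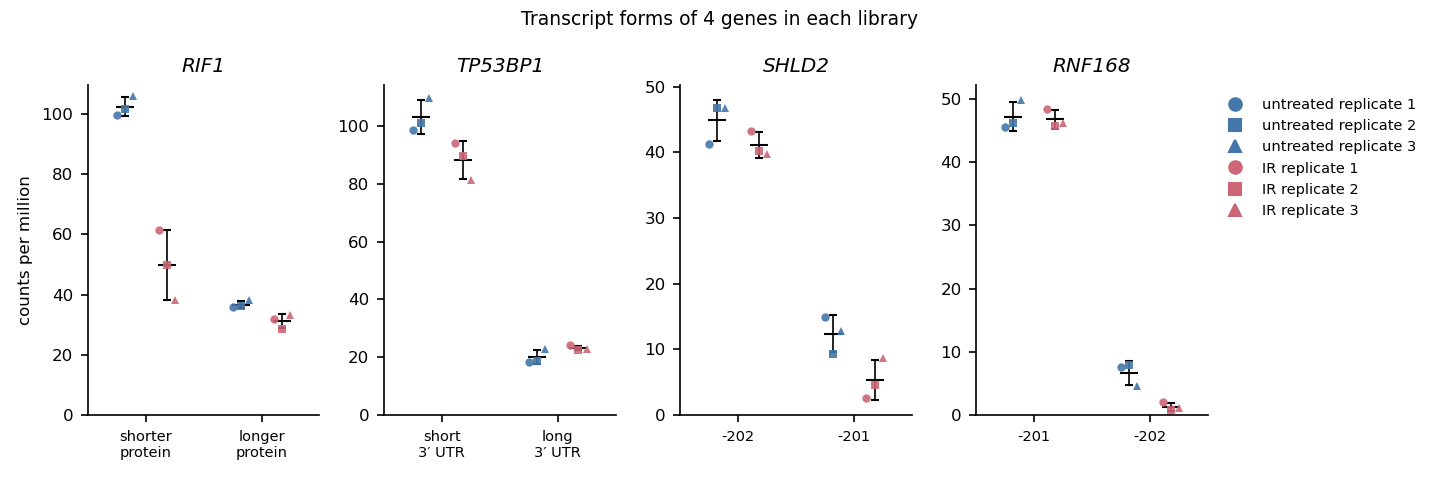
CPM of transcript forms in the untreated (blue) and irradiated (red) libraries, with the mean and SD of each group in black: RIF1 summed by length of the encoded protein, TP53BP1 summed by length of the 3′ UTR, and the named single transcripts of SHLD2 and RNF168. The shorter RIF1 form lay between 99.8 and 106 CPM in untreated and between 38.0 and 61.3 CPM in irradiated libraries, and RNF168-201 overlapped between the groups.

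SHLD2, the largest subunit of shieldin, which binds single-stranded DNA (ENSG00000122376, chromosome 10 from 87094161 to 87191465, forward strand), had 55.9, 55.9 and 59.7 CPM in the untreated and 45.5, 44.4 and 46.4 CPM in the irradiated libraries. The groups were clearly apart and the spread within each was narrow. The log2 fold change was -0.33 with an SE of 0.07 and an adjusted p of 0.00522. The call was lost after removal of each library's GC trend, with a log2 fold change of -0.13 and an adjusted p of 0.185, and the GC content of SHLD2 is 37.9%. The annotation holds the copies SHLD2P1, SHLD2P2 and SHLD2P3, which are not among the transcripts of the tables, and whether reads from them were assigned to SHLD2 was not tested.

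As with RNF168, the larger log2 fold change of SHLD2 was that of the minor transcript. The test of transcript usage did not pass for SHLD2 (unadjusted p = 0.532). SHLD2-202, with 904 residues, had 41.3, 46.7 and 46.8 CPM in untreated and 43.3, 40.2 and 39.8 CPM in irradiated libraries, with overlap and a log2 fold change of -0.13. SHLD2-201, with 835 residues, had 14.9, 9.34 and 12.8 CPM in untreated and 2.64, 4.62 and 8.75 CPM in irradiated libraries. These groups did not overlap, and the log2 fold change of -1.21 had an unadjusted p of 0.0481 and an adjusted p of 0.461. The coding difference of the forms is the exon of 207 bases, 69 codons, at chr10:87175889-87176095 of GRCh38, forward strand, which SHLD2-201 lacks.
SHLD2 exon 7: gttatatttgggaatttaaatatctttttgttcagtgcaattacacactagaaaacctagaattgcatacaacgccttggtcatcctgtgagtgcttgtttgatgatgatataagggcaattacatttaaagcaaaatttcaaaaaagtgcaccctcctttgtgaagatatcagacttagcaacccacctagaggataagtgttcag

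The other subunits of shieldin did not pass the test. SHLD1, which binds SHLD2 (ENSG00000171984, chromosome 20 from 5750393 to 5864395, forward strand), had 2.03, 2.50 and 2.79 CPM in untreated and 2.66, 2.56 and 2.70 CPM in irradiated libraries. With 37 to 122 counts per library, the 95% confidence interval of its log2 fold change ran from -0.33 to 0.56 (adjusted p = 0.698). SHLD3, which joins REV7 to the complex (ENSG00000253251, chromosome 5 from 65625027 to 65630928, forward strand), had 5.66, 6.15 and 10.0 CPM in untreated and 6.87, 8.93 and 6.997 CPM in irradiated libraries. For both genes the groups overlapped, and for SHLD3 untreated replicate 3 was the highest library. The interval of SHLD3 ran from -0.42 to 0.53 (adjusted p = 0.872), and its exons overlap those of TRAPPC13 on the same strand, so that reads of the overlap could belong to either gene. SHLD3-201, of 250 residues, held 99.3% and 99.5% of its counts in untreated and irradiated libraries on average. SHLD1 was split between SHLD1-201, of 205 residues, with 54.9% and 53.5%, and SHLD1-202, of 62 residues, with 33.5% and 41.2%.

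MAD2L2, which encodes REV7, also a subunit of DNA polymerase zeta (ENSG00000116670, chromosome 1 from 11658918 to 11691811, reverse strand), had 31.2, 29.8 and 30.6 CPM in untreated and 30.3, 32.2 and 42.2 CPM in irradiated libraries. IR replicate 3 was above all other libraries and IR replicates 1 and 2 were near the untreated ones. The log2 fold change was 0.20 with an SE of 0.12 and an adjusted p of 0.207, and with the GC trend removed it was -0.06. Without IR replicate 3 it was 0.02. MAD2L2-207, which encodes 211 residues, held 58.7% and 69.0% of the counts in untreated and irradiated libraries on average, and MAD2L2-205, which encodes 224 residues, held 14.3% and 9.12%. MAD2L2 had the highest GC content of the 10 genes, 60.5%.

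**Figure D4:**
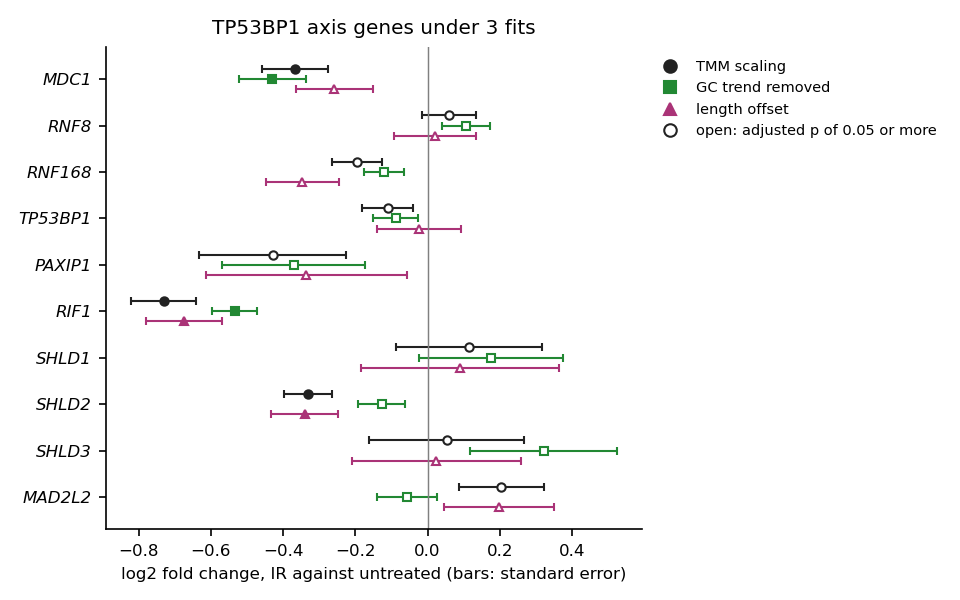
Log2 fold changes of the 10 genes after IR, with standard errors, under TMM scaling, with the GC trend of each library removed, and with an offset for effective length, with filled symbols for an adjusted p under 0.05. RIF1 was called in all 3 fits, SHLD2 not after removal of the GC trend, and MDC1 not with the length offset.

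Exons of MDC1, TP53BP1, RIF1, SHLD2 and MAD2L2 overlap exons of protein-coding genes on the opposite strand, which are TUBB, TUBGCP4, NEB, GLUD1 and, for MAD2L2, both DRAXIN and FBXO6. Whether the counting used the strand of the reads is not given in the sources used here, and without strand the reads of such a pair cannot be told apart.

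Promoter sequences were taken from RefSeq (GRCh38.p14) and ran from 250 bases before to 50 after the start, and they were held for 7 of the 10 genes, with 8 entries in all, since MAD2L2 has 2. Each was searched on both strands for the CCAAT box, for TTTGAA and TTCGAA as forms of the CHR element, and for GGCGGGA and GCGCGAA as forms of the E2F site. CCAAT occurred in 5 of the 7 genes and in 34.6% of all 35116 promoters, and GGCGGGA in 3 and in 15.4%. TTTGAA occurred in 2 genes, RIF1 and MDC1, and in 15.2% of all promoters, GCGCGAA in 1, MAD2L2, and in 2.24%, and TTCGAA in none and in 1.45%. The promoters of RIF1 (chr2:151409652-151409951, forward strand) and MDC1 (chr6:30717232-30717531, reverse strand) are shown because these genes were lower after IR, with matches in capitals. No entry was held for SHLD1, SHLD2 and PAXIP1. The matches are descriptions of these windows, and binding was not measured.
RIF1 promoter: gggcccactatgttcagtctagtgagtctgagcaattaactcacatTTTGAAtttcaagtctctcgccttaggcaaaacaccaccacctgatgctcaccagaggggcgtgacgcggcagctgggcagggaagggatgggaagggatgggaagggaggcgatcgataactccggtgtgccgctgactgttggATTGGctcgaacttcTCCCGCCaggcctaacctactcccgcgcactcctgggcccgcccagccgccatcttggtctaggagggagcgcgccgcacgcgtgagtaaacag
MDC1 promoter: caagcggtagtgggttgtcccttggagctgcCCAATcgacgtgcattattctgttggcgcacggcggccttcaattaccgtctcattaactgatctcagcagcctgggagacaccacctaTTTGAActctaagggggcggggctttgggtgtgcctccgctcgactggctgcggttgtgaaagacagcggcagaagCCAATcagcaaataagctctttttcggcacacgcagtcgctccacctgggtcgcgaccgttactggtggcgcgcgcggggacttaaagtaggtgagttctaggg

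The neighbours of the axis in the pathway were described by lists written with earlier results of these data known. Over all genes tested, 14.5% were lower and 15.5% higher, and the counts of each list stand beside those shares. Of 14 genes of break signalling and ubiquitin conjugation upstream of 53BP1, 5 were lower, none higher, and 9 did not pass, and their median was -0.24 on the log2 scale. The lowest p-values were those of CHD4, a chromatin remodeller recruited to breaks, with a log2 fold change of -0.33 (SE 0.06, adjusted p = 0.00355), and of ATM, the kinase at the head of the cascade, with -0.37 (SE 0.07, adjusted p = 0.00415). NBN, MRE11 and HERC2 were the other 3. With the GC trend removed, 5 were lower too, but NBN (adjusted p = 0.391) and MRE11 (adjusted p = 0.145) lost their calls. KAT5 and H2AX gained one, at -0.36 and -0.26. For H2AX this was a turn of direction, since it was at 0.21 (adjusted p = 0.136) without that removal. With the length offset H2AX was at 0.30 (adjusted p = 0.171). With the length offset ATM turned direction, at 0.11 (adjusted p = 0.587).

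Of 12 genes that restrain ubiquitin signalling at breaks, 10 were tested, of which 5 were lower, none higher and 5 did not pass, with a median of -0.28. USP16, which removes ubiquitin from histone H2A, had a log2 fold change of -0.37 (SE 0.08, adjusted p = 0.00699). RNF169, TRIP12 and USP7 were lower too. With the GC trend removed 6 were lower, BAP1 at -0.22 in addition to those before. TRIP12 controls the amount of RNF168 protein, and RNF169 competes with 53BP1 for the mark of RNF168.

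Of 10 genes of H4 lysine methylation and 53BP1 binding, 3 were lower, 2 higher and 5 did not pass, with a median of -0.01. DYNLL2, a dynein light chain, had -0.26 (SE 0.06, adjusted p = 0.0109) and USP28, a deubiquitinase that binds 53BP1, had -0.28 (SE 0.07, adjusted p = 0.0142). KMT5B, which writes the methyl mark that 53BP1 reads, was the third lower gene with -0.30, and with the GC trend removed it did not pass, at -0.17 (adjusted p = 0.0768). NUDT16L1, which encodes the 53BP1 inhibitor TIRR, had 11.7, 9.68 and 10.1 CPM in untreated and 15.5, 13.01 and 21.6 CPM in irradiated libraries. Its libraries did not overlap, the log2 fold change was 0.69 (SE 0.17, adjusted p = 0.0143), and with the GC trend removed it was 0.30 (adjusted p = 0.129). LMNA was the other higher gene, with 0.25 (adjusted p = 0.0464), and -0.03 with the GC trend removed.

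Of 15 genes linked to 53BP1, to shieldin or to steps downstream of them, 6 were lower, none higher and 9 did not pass, with a median of -0.16. POLA1, the catalytic subunit of DNA polymerase alpha, had -0.60 (SE 0.08, adjusted p = 0.00108), and DCLRE1C, which encodes the nuclease Artemis, had -0.56 (SE 0.09, adjusted p = 0.00208). The genes of the CST complex, CTC1, STN1 and TEN1, which acts with shieldin at ends, did not pass. With the GC trend removed 3 of the 6 were lower, and REV3L (adjusted p = 0.144), CHAMP1 (adjusted p = 0.0662) and ATMIN (adjusted p = 0.223) did not pass.

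Among 14 genes of BRCA1, its partners and end resection, 8 were lower, 1 higher and 5 did not pass, with a median of -0.27. Those that did not pass were BRCC3, BABAM2, ABRAXAS1, UIMC1 and PALB2. BRIP1, a helicase that binds BRCA1, had -0.58 (SE 0.08, adjusted p = 0.00118), and BRCA1 itself had -0.53 (SE 0.07, adjusted p = 0.00125). EXO1, BARD1, DNA2, BLM, RBBP8 and UHRF1 were the other lower genes, and BABAM1, a subunit of the BRCA1-A complex, was the higher one. With the GC trend removed 6 were lower and none higher, and DNA2 (adjusted p = 0.116), RBBP8 (adjusted p = 0.109) and BABAM1 (adjusted p = 0.624) did not pass. With the length offset, under which 875 genes of the whole table were called lower, BRIP1, BRCA1, EXO1 and BARD1 were still lower, as were POLA1 and DCLRE1C downstream, USP28 among the binding genes, and no gene of the first 2 lists.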

How the data were processed

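Bulk RNA-seq was analysed for 3 untreated and 3 irradiated (4 Gy, 24 h) libraries of U-2 OS cells, grouped by their labels. The authors assigned reads with kallisto to GENCODE release 37 of GRCh38 and deposited, per transcript, an estimated count that is not normalized and a TPM value scaled for effective length and library total. The version of kallisto is not given in the sources used here. On library preparation the sources differ, with an mRNA kit in the labels and a total RNA kit in the methods.

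Identifiers of transcripts were looked up in GENCODE release 44, and 2460 of them, holding 1.54% to 1.80% of a library's counts, had no match and were not used. Gene values are sums of the estimated counts, rounded to whole numbers. Low genes were removed with filterByExpr, TMM factors were computed, and the quasi-likelihood test (glmQLFit, glmQLFTest) was run in edgeR 4.0.16 under R 4.3.3, with p-values adjusted over all genes by Benjamini-Hochberg and a threshold of 0.05. The alternatives also used DESeq2 1.42.0 and limma 3.58.1. Transcripts were tested in the same way, and transcript usage by diffSpliceDGE with Simes p-values for genes with at least 2 tested transcripts. CPM use TMM-scaled library sizes. TPM of a gene are the sums of the deposited TPM of its transcripts. Intervals are at 95%.

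The members and lists were chosen with earlier results of these data known. The text names all 10 members, the 2 genes of lowest p in each list, the transcripts of TP53BP1 with a mean of at least 1 CPM, the 2 most abundant transcripts of each other member, and the 5 genes most like TP53BP1. A few of these items are left out here. Genes and transcripts named beyond this rule were chosen after their values were seen. The scripts were tested on simulated counts. For genes, recovery of set changes was required at the spread of these data. For transcripts it was required only at a lower spread, so no recovery at their own spread is claimed. The biological coefficient of variation was 0.737 for transcripts and 0.0931 for genes, which limits what the transcript test can call. A trend of log2 counts with GC content was removed per library by loess (span 0.3) as an alternative.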

Additional observations from a re-analysis of the deposited data

How the results depend on the processing

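Of 170 values of the 10 genes under 17 alternatives, 163 kept their direction, as did 282 of 297 values of the named transcripts. RIF1 was called in 17 alternatives, SHLD2 in 13, MDC1 in 12, RNF168 in 2 and the other members in none. The number of members called lower was 3, with 2 to 4 when 1 library was left out and 1 under limma on log2(TPM + 1) and on log2(TPM + 0.1). Genes called higher over the whole table numbered 2227, against 1477 with the GC trend removed and a replicate block, 833 with the length offset, 393 and 403 under limma with a pseudocount of 1 and 0.1, and 1295 to 2114 when 1 library was left out. Genes called lower numbered 2080, against 875 with the length offset, 875 and 906 under limma, and 1244 to 2284 when 1 library was left out. Both counts moved by over 1.5 times without untreated replicate 1 (1295 higher, 1287 lower) and without untreated replicate 2 (1357 higher, 1244 lower). The limma fits called 31.0% and 30.8% of their genes higher, and the edgeR test 51.7%. Transcripts called numbered 0, against 3002 by the DESeq2 Wald test and 714 by the edgeR likelihood ratio test, the latter chosen after seeing the data. Genes called for transcript usage numbered 285, against 228 to 443 when 1 library was left out, with the highest number without untreated replicate 3.

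Directions reversed for MAD2L2 with the GC trend removed (-0.056, and -0.066 with the block), for RNF8 under both limma fits (-0.028 and -0.029), and for SHLD3 without untreated replicate 1 (-0.094), untreated replicate 2 (-0.057) or IR replicate 2 (-0.071), with up to 0.35 without untreated replicate 3. When 1 library was left out, the log2 fold changes of 7 named transcripts also crossed 0. They ran from -0.057 to 0.41 for SHLD3-201, from -0.26 to 0.37 for RNF8-204, from -0.57 to 0.27 for TP53BP1-207, from -0.035 to 0.040 for RNF168-201, from -0.14 to 0.14 for RIF1-205, from -1.68 to 0.096 for MAD2L2-205, and from -0.26 to 0.030 for PAXIP1-205. None of the reversed values passed the test, and the cause was not tested.

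Same-numbered libraries did not deviate together, with correlations between -0.07 and -0.01, so that the numbers were not taken as a pairing. With a replicate block, 1727 genes were higher and 1624 lower, 3 members were lower, no transcript was called, and 149 genes were called for transcript usage.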

Other observations

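Markers of other cell types were low in these libraries and were not tested for a part in the results. Among epithelial markers, EPCAM had 9.39 CPM in untreated and 10.0 CPM in irradiated libraries on average, CDH1 had 2.07 and 3.195 CPM and was higher after IR with a log2 fold change of 0.61 (adjusted p = 0.0465), and KRT19 had counts in 1 of 6 libraries. Of the haematopoietic markers, PTPRC had 1.48 and 0.878 CPM (adjusted p = 0.0607), CD14 had at most 0.242 CPM and CD3E was at 0. The endothelial markers PECAM1 and CDH5 had at most 0.598 and 0.342 CPM. RUNX2, a transcription factor of the osteoblast lineage, was lower after IR with a log2 fold change of -0.36 (adjusted p = 0.0250). TERT and CDKN2A, which U-2 OS cells are known not to express, had at most 0.0977 CPM and 0 CPM. Adjusted p-values are those of edgeR's quasi-likelihood test over all genes.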
